A study of Mus musculus with 20 samples.

Results

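Zic1, Zic2, Zic4 and Zic5 were followed through 20 CUT&RUN peak lists of mouse neuronal nuclei. They are 4 of the 21631 protein-coding genes of chromosomes 1 to 19 and X, and were selected on their peak coverage by antibody and neuron type in these same lists, so their differences between neuron types are given as a description. Where the text counts members called by a test over all genes, the count describes that fit, and nothing is read from it. CUT&RUN cuts out and sequences the DNA that an antibody holds in intact nuclei. Antibodies against H3K4me3, EGR1, H3K27ac, H3K4me1 and H3K27me3 were each applied to nuclei labelled as excitatory or inhibitory neurons, with 2 libraries per group. All 20 libraries came from whole brain of 8-week-old mice of a single genotype, Sun1 f/f with Emx1Cre (+), so both neuron types share the floxed Sun1 allele and the Cre transgene. The Emx1 promoter drives Cre in the dorsal forebrain, in the lineage of its excitatory neurons, and the gate for inhibitory nuclei was not given in the sources used here. Whether both libraries of a group stem from different animals is not said in the labels. Any p-value therefore measures only the spread between these libraries, which may be technical.

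Zic genes encode transcription factors with a run of zinc fingers related to those of the Gli and Glis proteins. They pattern the dorsal neural tube and the midline of the forebrain, and in the cerebellum Zic1 and Zic4 act in the growth of the granule cell layer; Zic1 and Zic2 remain expressed in mature granule neurons. Zic2 is known for its part in forebrain division and in axon crossing at the optic chiasm, and Zic5 for neural crest formation. H3K4me3 is a mark of promoters and H3K4me1 and H3K27ac are marks of enhancers. H3K27ac is also found at active promoters. H3K27me3 is laid down by the Polycomb machinery over silent developmental genes. EGR1 is a zinc-finger factor induced by neuronal activity.

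The members form neighbouring pairs. On mm10, Zic1 lies on chromosome 9 from 91358058 to 91365768 and Zic4 from 91365631 to 91389351, so that their gene models overlap by 138 bases. Zic5 lies on chromosome 14 from 122459160 to 122465658 and Zic2 from 122475384 to 122480328, with 9725 bases between them that hold the long noncoding RNA gene 2610035F20Rik. Coverage is the percent of a window that lies under deposited peaks. For H3K27me3, H3K27ac and H3K4me1 the window was the gene body plus 5 kb on each side, and for H3K4me3 and EGR1 it took in the bases within 2 kb of either gene end. The body windows of Zic1 and Zic4 share 10138 bases, which is 57.2% of that of Zic1 and 30.1% of that of Zic4, so these members are not independent of each other. Those of Zic2 and Zic5 share 275 bases.

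RefSeq promoter sequences of GRCm38.p6, the assembly of mm10, matched 3 of the 4 members. They run from 250 bases before to 50 after the annotated start and are shown because EGR1 peaks of the 2 neuron types differed over the first of them. CpG dinucleotides, in which promoters of developmental genes are often rich, are in capitals. The Zic1 sequence is chr9:91365719-91366018 on the minus strand, that of Zic4 is chr9:91368722-91369021 on the plus strand, and that of Zic5 is chr14:122465609-122465908 on the minus strand.
Zic1: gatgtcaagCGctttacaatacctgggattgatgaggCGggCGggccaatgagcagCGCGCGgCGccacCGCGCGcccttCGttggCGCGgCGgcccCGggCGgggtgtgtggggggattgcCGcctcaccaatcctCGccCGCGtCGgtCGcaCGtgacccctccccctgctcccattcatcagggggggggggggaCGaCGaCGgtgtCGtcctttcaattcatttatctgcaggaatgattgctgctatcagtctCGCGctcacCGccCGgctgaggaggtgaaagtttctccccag
Zic4: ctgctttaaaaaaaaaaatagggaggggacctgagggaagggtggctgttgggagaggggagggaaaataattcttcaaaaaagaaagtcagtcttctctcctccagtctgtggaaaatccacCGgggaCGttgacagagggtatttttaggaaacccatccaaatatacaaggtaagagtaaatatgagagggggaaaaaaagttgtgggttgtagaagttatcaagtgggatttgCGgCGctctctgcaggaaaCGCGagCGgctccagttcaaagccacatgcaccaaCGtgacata
Zic5: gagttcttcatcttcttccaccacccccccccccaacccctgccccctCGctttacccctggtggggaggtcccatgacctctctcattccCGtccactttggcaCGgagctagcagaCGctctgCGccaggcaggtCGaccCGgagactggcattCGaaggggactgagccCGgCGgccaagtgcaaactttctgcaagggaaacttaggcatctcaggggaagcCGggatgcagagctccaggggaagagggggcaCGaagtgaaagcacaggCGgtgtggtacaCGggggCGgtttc

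The Zic1 promoter held 31 CpG dinucleotides and 65.3% G and C, against a median of 13 and 56.7% over 21045 promoters of the same length. The Zic5 promoter held 15 and 62.7%. The Zic4 promoter, which lies inside the Zic4 gene model, held 8 and 46%. The EGR1 motif was searched as GCGNGGGCG on both strands and was present in none of the 3 windows. It was present in 7.60% of all promoters.

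Several facts of the whole series touch the results. The lists were deposited at lenient thresholds. Of the H3K27me3 peaks between 0.00488% and 0.00990% per library had a q-value under 0.05, and of the EGR1 peaks between 90.7% and 98.1% did. H3K27ac lists had 2.57% and 4.94% such peaks in excitatory and 31.8% and 35.1% in inhibitory libraries. The markers of the neuron types differed between antibodies in how they fit the labels. With EGR1, Gad1, Slc32a1, Dlx1, Dlx2, Dlx6 and Lhx6, 6 of 8 inhibitory markers, were at 0 in both excitatory libraries. Dlx1 was at 0 in both inhibitory libraries too. Emx1 and Fezf2, both excitatory markers, were at 0 in both inhibitory libraries. Over all genes, 34.1% and 33.9% were at 0 in excitatory and 40.6% and 37.4% in inhibitory libraries 1 and 2. The fitted differences lay on the side of the labels for 5 of 5 inhibitory markers tested and for 5 of 7 excitatory ones. Gad1, Slc32a1 and Dlx2 were tested only through the inhibitory libraries, and Emx1 and Fezf2 only through the excitatory ones. The filter thus fixed the side on which these markers were covered. With H3K27ac the mean coverage of the 8 inhibitory markers was 5.23% to 5.80% in the excitatory and 0.120% to 0.149% in the inhibitory libraries, where Slc32a1, Dlx1, Dlx2, Dlx5, Dlx6 and Lhx6 were at 0. All 7 inhibitory markers tested thus lay against the labels for this mark, while 5 of 7 excitatory markers lay with them. Tested markers at 0 in both inhibitory libraries entered only through the excitatory ones, so the filter fixed the side on which they were covered. For H3K4me1 the 8 inhibitory markers split, with 4 higher in excitatory libraries and 4, all Dlx genes, lower (median -0.23 points), and 6 of 7 excitatory markers lay with the labels. For H3K4me3, 5 of 8 inhibitory and 3 of 7 excitatory markers did. Both markers that passed the test lay against the labels. H3K4me1 on Gad1, which makes GABA, covered 21.2% and 25.4% in excitatory against 4.42% and 7.40% in inhibitory libraries (difference 14.9 points, SE 2.79, limma adjusted p = 0.0496). H3K4me3 on Tbr1, a cortical excitatory factor, covered 0% and 12.0% in excitatory against 34.3% and 35.9% in inhibitory libraries (difference -30.0 points, SE 3.23, limma adjusted p = 0.0139), while the largest H3K4me3 difference with the labels among the excitatory markers was that of Neurod6 (11.2 points, SE 5.61). For H3K27me3, 4 of 7 excitatory markers were higher in excitatory libraries and 3 lower (median 3.52 points). The 8 inhibitory markers split into 4 and 4 (median 0.30). Neurod2 had 26.5% and 22.3% in excitatory and 0% in both inhibitory libraries, so it was tested only through the excitatory ones. Camk2a had the largest difference the other way among the excitatory markers (-17.8). "Excitatory" and "inhibitory" are therefore used here as names of the labels. In sorted bulk nuclei, fewer nuclei with a mark and less of it per nucleus cannot be told apart.

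Several markers of cerebellar granule neurons differed in the same direction as the Zic genes, and others did not. Their mean H3K4me3 coverage was 9.50% to 18.3% in excitatory and 25.8% to 30.7% in inhibitory libraries, and 3 of 8 fell in excitatory nuclei by limma with Benjamini-Hochberg adjustment over all genes, which called 1.22% of all genes tested in that direction. These were Gabra6, a GABA receptor subunit of granule neurons (difference -27.3 points, adjusted p = 0.0125), Barhl1, a homeobox factor of their lineage (-23.6, adjusted p = 0.0125), and Fat2, a protocadherin of their parallel fibres (-16.2, adjusted p = 0.0426). The other 5 did not pass, and Neurod1 had a difference of 3.63 points. The median difference of the 8 was -17.4 points, beside -0.12 over all genes tested. For H3K27me3 their mean was 18.7% to 22.4% in excitatory and 10.5% to 11.3% in inhibitory libraries, and 5 of 7 tested were higher in excitatory libraries, among them Neurod1 (difference 35.8 points) and Fat2 (25.4). Barhl1, with 20.2% and 29.0% in excitatory and 32.6% and 32.5% in inhibitory libraries (difference -4.84), and Atoh1 (-5.93) lay on the other side, and Gabra6 was at 0 in all 4 libraries. Neurod1 and Cbln3 were at 0 in both inhibitory libraries, so they were tested only through the excitatory ones and the filter fixed the side on which they were covered. For EGR1, 3 of 5 tested lay above 0 and 2 below. The part of granule neurons in the Zic results was not tested.

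H3K27me3 peaks lay in the window of every member in both excitatory libraries and in that of 1 member, Zic4, in 1 inhibitory library. Zic2 was covered over 35.4% and 36.0% of its window in excitatory libraries 1 and 2 and over 0% in both inhibitory libraries. Zic5 was covered over 29.4% and 38.6% in excitatory and 0% in both inhibitory libraries. Zic1 was covered over 26.1% and 27.6% in excitatory and 0% in both inhibitory libraries. Both excitatory libraries thus lay above both inhibitory ones for these 3 genes, with no peak in the latter. Zic4, the longest of the 4, was covered over 21.5% and 26.4% in excitatory libraries and over 1.88% in inhibitory library 1 and 0% in inhibitory library 2. The single inhibitory peak lay 7.08 to 7.72 kb from the start of Zic1, inside Zic4.

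The fitted H3K27me3 differences, excitatory minus inhibitory in percentage points after quantile normalization, were 37.1 (SE 2.29) for Zic2, 35.3 (SE 3.03) for Zic5, 28.2 (SE 2.296) for Zic1 and 25.2 (SE 2.48) for Zic4. Among 15438 genes tested they ranked 1, 3, 33 and 82 from the top. Their median was 31.8 points, beside 0.05 over all genes tested. Limma called 0 of the 15438 genes in either direction, which is 0% of them, and 0 of the 4 members; 4455 genes (28.9%) had an unadjusted p under 0.05. On the log2 scale it called all 4 members, among 1031 genes. Zic1, Zic2 and Zic5 were tested only because both excitatory libraries were covered, so a difference was fixed by the filter. Zic4 was also covered in inhibitory library 1. A gene with peaks in both excitatory and in neither inhibitory library was found in 1.79% of the genes tested, and the reverse in 11.9%. Excitatory libraries lay above inhibitory ones without overlap in 14.2% of genes.

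The inhibitory H3K27me3 lists held 313235 and 265968 peaks, against 231996 and 246064 in the excitatory libraries. Peak numbers of a whole list do not show what could be detected at the Zic loci, which was not tested. Of 2021 genes with at least 21.5% coverage in both excitatory libraries, the lowest member value, 32 (1.58%) were at or under 1.88% in both inhibitory libraries. The second cutoff was the highest member value there. The members set both cutoffs, so their place among the 32 was fixed in advance and nothing is read from the share. These 32, named here after their values were seen, include the 4 members, the neuronal differentiation factors Neurod1 and Neurod2 and the homeobox factors En2, Barhl2 and Meis1. The list is not confined to such factors, as Krtap19-4, Reg3d, Odf3b, Clic1 and Grin2c are also among the 32. No H3K27me3 peak over the members had a q-value under 0.05, and the strongest, in excitatory library 2 over the Zic2 window, had a -log10 q of 0.259 and a fold enrichment of 2.06.

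**Figure D1:**
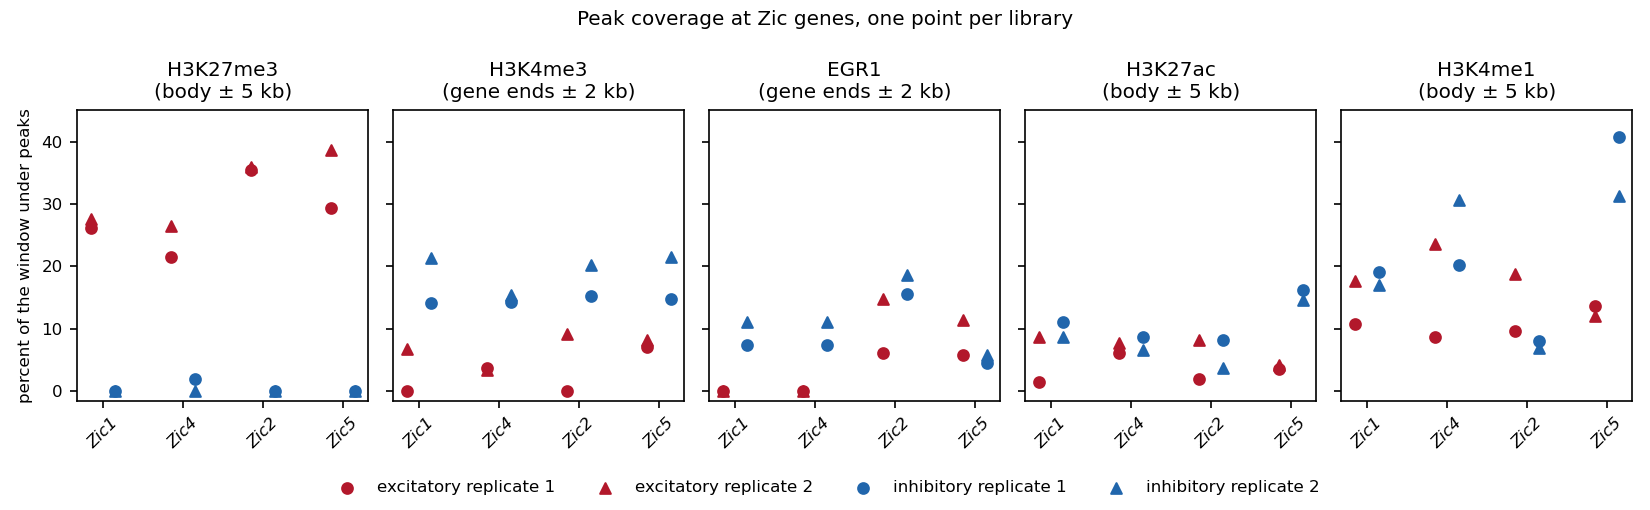
Percent of each gene's window under peaks (y axis) for Zic1, Zic4, Zic2 and Zic5, in 1 panel per antibody; each point is 1 library, red for excitatory and blue for inhibitory, with circles for replicate 1 and triangles for replicate 2. For H3K27me3 the excitatory libraries lie between 21.5% and 38.6% at the 4 members and the inhibitory ones at 1.88% or less.

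The H3K27me3 peaks of the excitatory libraries were spread unevenly over both loci. In the gene model of Zic2 they covered 9.91% and 22.8% of the bases, against 48.1% and 42.5% of its flanks of 5 kb, and most of the Zic2 gene had no peak. Zic1 was alike, with 12.1% and 16.6% in the gene and 36.9% and 36.1% in the flanks. Zic5 was covered more in the gene, with 41.1% and 45.9%, than in the flanks, with 21.9% and 33.8%. For Zic4 the gene had 18.3% and 26.8% and the flanks 29.2% and 25.5%. Within 20 kb of the Zic1/Zic4 pair, 9 of 30 regions held a peak in both excitatory and in neither inhibitory library, and 1 of 30 the reverse. Around Zic2/Zic5 these counts were 10 and 1 of 21. Such regions were not counted over the rest of the genome, and the members were chosen on these lists, so nothing is read from the counts. A region of 2.68 kb inside Zic4 (chr9:91369358-91372040) had folds of 1.73 and 1.59 in excitatory libraries 1 and 2. A region of 1.65 kb across the end of Zic2 that faces Zic5 (chr14:122474866-122476510) had folds of 1.72 and 1.54. Within 2 kb of that end, 44.4% and 49.4% of the bases were covered in excitatory libraries and 0% in both inhibitory ones. The outer end of Zic2 had 0% and 11.8% in excitatory libraries. At Zic5 the end that faces Zic2 had 22.1% and 25.7%, and the outer end 0% and 32.8%. At the outer end of Zic4 the values were 47.5% and 47.9%, and at that of Zic1 21.9% and 58.6%. The 4 kb around the start of Zic1 carried less, with 4.45% and 8.02% in excitatory libraries. All of these ends had 0% in both inhibitory libraries.

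**Figure D2:**
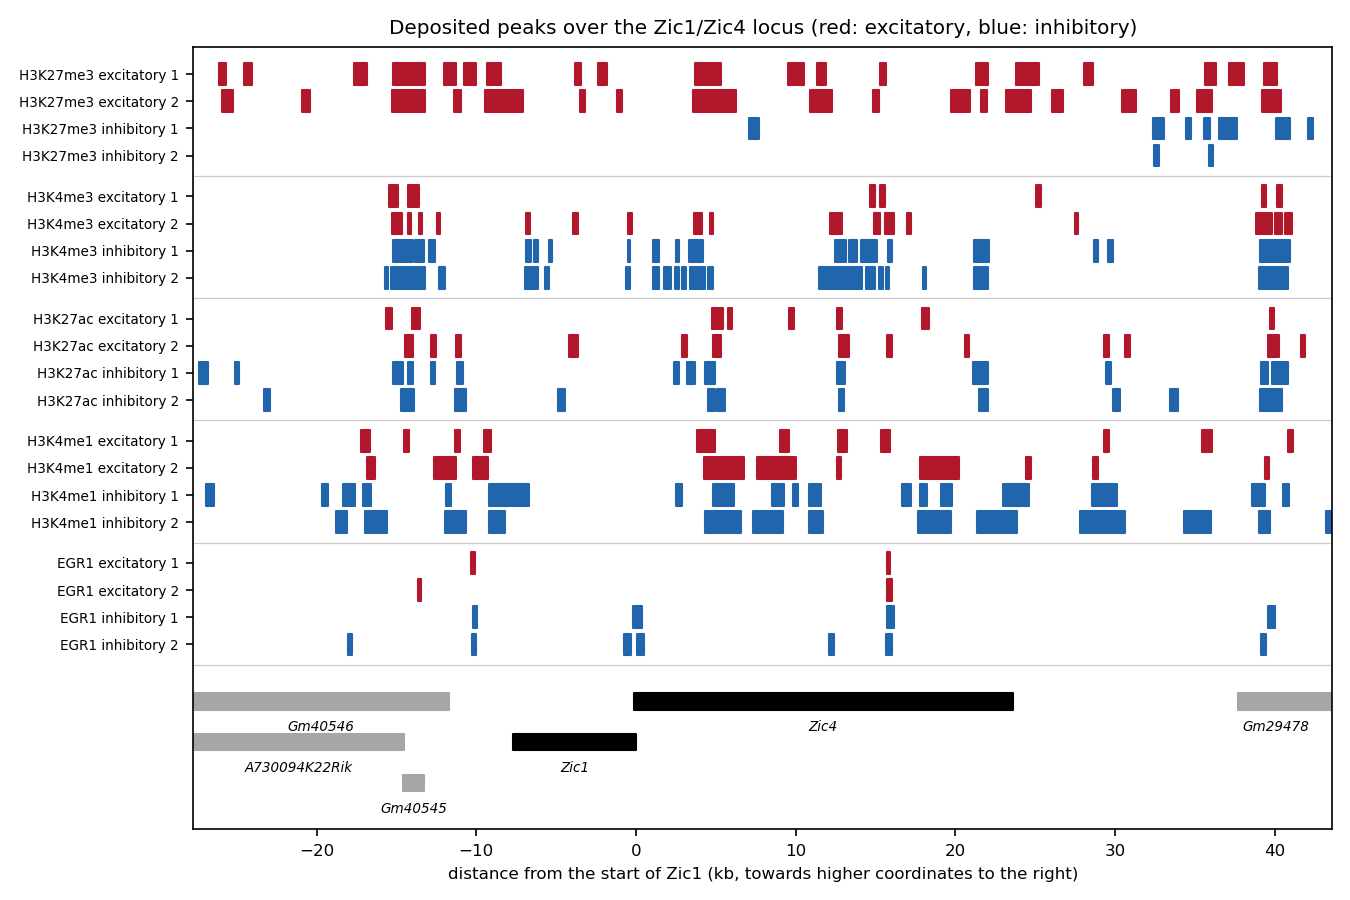
Deposited peaks within 20 kb of Zic1 and Zic4, with 1 row per library (red excitatory, blue inhibitory) and distance from the start of Zic1 in kb on the x axis; bars are peaks, black boxes gene models of the members and grey boxes other genes. Separate H3K27me3 bars lie over parts of both genes in the 2 excitatory rows, with a single bar over Zic4 in inhibitory library 1.

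In 10 kb bins out to 100 kb, the excitatory H3K27me3 coverage reached beyond the genes. From 30 kb below to 30 kb above the start of Zic1 it was between 13.7% and 42.7% in both excitatory libraries, and in the inhibitory libraries it was 0% except for 6.35% in 1 bin of library 1. From 30 to 100 kb above that start inhibitory libraries were covered too, by up to 30.8%, and the types overlapped in 3 of 7 bins; both excitatory libraries lay above both inhibitory ones in the other 4. Around Zic5, excitatory coverage ran from 100 kb below to 50 kb above the start at 6.38% to 48.5%, and in the next 10 kb it was 0% and 4.33%. Both inhibitory libraries were covered in 4 of these 15 bins, all below the start and partly or wholly over the long noncoding RNA gene Gm5089. From 60 to 40 kb below it they had 7.68% to 32.5%, from 40 to 30 kb 2.96% and 14.4%, and from 20 to 10 kb 8.02% and 15.8%. Both excitatory libraries lay above both inhibitory ones in 11 of the 15. The contrast between types was thus not uniform along either locus. Bins elsewhere in the genome were not counted.

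**Figure D3:**
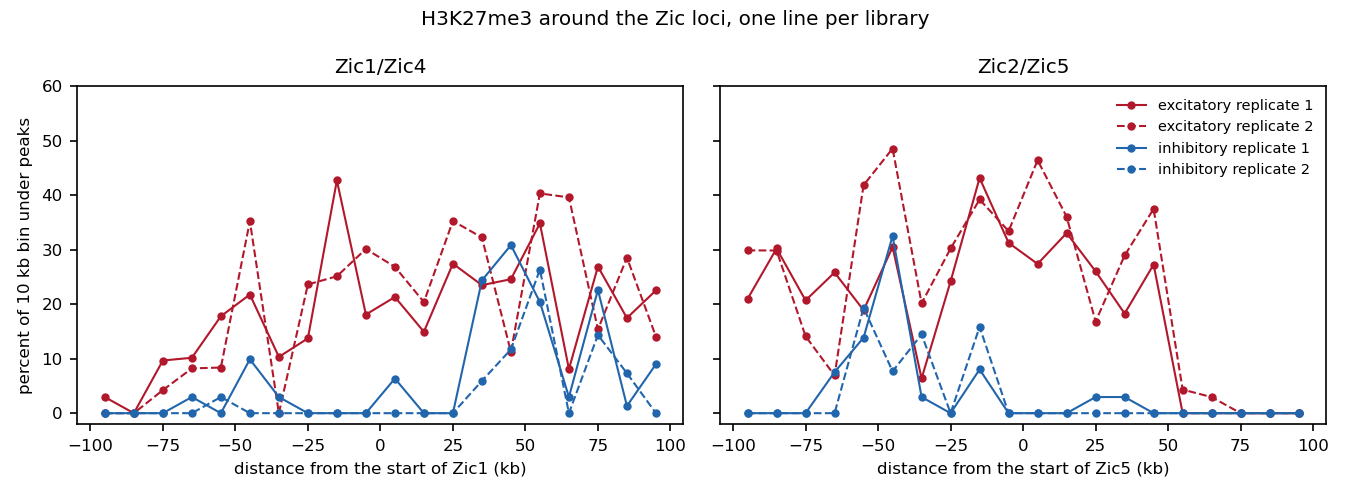
H3K27me3 coverage of 10 kb bins (y axis, percent of the bin under peaks) by distance from the start of Zic1 (left) or Zic5 (right) in kb, with 1 line per library, solid for replicate 1 and dashed for replicate 2. Over the genes the red excitatory lines lie above the blue inhibitory lines at or near 0; the lines meet at 40 to 50 kb above Zic1 and at 50 to 40 kb below Zic5.

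H3K4me3 over the joined gene ends went the other way at all 4 members. Zic1 was covered over 0% and 6.76% in excitatory and 14.2% and 21.4% in inhibitory libraries. Zic4 was covered over 3.64% and 3.39% against 14.2% and 15.5%. Zic2 was covered over 0% and 9.19% against 15.2% and 20.3%. For each gene both inhibitory libraries lay above both excitatory ones. Zic5 was covered over 7.12% and 8.14% against 14.7% and 21.4%, again without overlap. The fitted differences were -15.6 points (SE 2.91) for Zic1, -14.5 (SE 2.91) for Zic2, -12.6 (SE 2.13) for Zic4 and -11.4 (SE 2.77) for Zic5. Their median was -13.5 points, beside -0.12 over all genes tested. Single ends did not all follow. The outer end of Zic2 had 0% and 18.4% in excitatory and 0% in both inhibitory libraries. At the end of Zic5 that faces Zic2 the types overlapped. At each of the other ends both inhibitory libraries lay higher. The printed Zic1 promoter had no H3K4me3 peak in any library. Those of Zic4 and Zic5 had one only in inhibitory library 2, over 50.3% and 17.3%.

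Limma called 2 of the 4 members for H3K4me3, Zic1 and Zic4, both higher in inhibitory libraries. Over all 15685 genes tested it called 1.22% in that direction, and groups did not overlap with the inhibitory libraries higher in 20.3% of genes. The members were chosen on these values, so nothing is read from the count. It ranged from 0 to 4 over the alternatives: all 4 were called in a fit blocked on replicate numbers, 3 of 4 with only peaks of -log10 p at least 3, 0 of 4 were called with body windows, with equal peak numbers, without quantile normalization, on the log2 scale, without the filter, or without excitatory library 2 or either inhibitory library, and 1 of 4 without excitatory library 1. Without excitatory library 2 or either inhibitory library limma called 0 genes for H3K4me3, so the calls of Tbr1, Gabra6, Barhl1 and Fat2 were lost there too.

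Within the loci the inhibitory libraries held more H3K4me3 peaks with a q-value under 0.05. Over the joined windows of Zic1 and Zic4, 8 of 13 peaks in inhibitory library 1 and 9 of 16 in library 2 were under it, against 1 of 3 and 3 of 11 in the excitatory libraries. Over those of Zic2 and Zic5 the inhibitory counts were 6 of 12 and 10 of 16, and the excitatory ones 0 of 4 and 0 of 7. Among all peaks of the H3K4me3 lists, 28.4% and 26.5% in excitatory libraries 1 and 2 were under that q-value. In inhibitory libraries 1 and 2 these shares were 23.9% and 47.6%. The largest contrast at a gene end was at the end of Zic2 that faces Zic5, where coverage within 2 kb was 0% in both excitatory and 30.4% and 40.6% in inhibitory libraries. The strongest H3K4me3 regions nearby lay outside the gene windows. One of 2.11 kb at the edge of Gm5089 (chr14:122449669-122451781) was present in all 4 libraries, with -log10 q of 1.80 and 5.41 in excitatory and 10.8 and 15.7 in inhibitory libraries. The other, of 2.24 kb in the long noncoding RNA gene Gm29478 (chr9:91404610-91406848), had 0.365, 2.27, 8.47 and 16.8 in the same order.

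**Figure D4:**
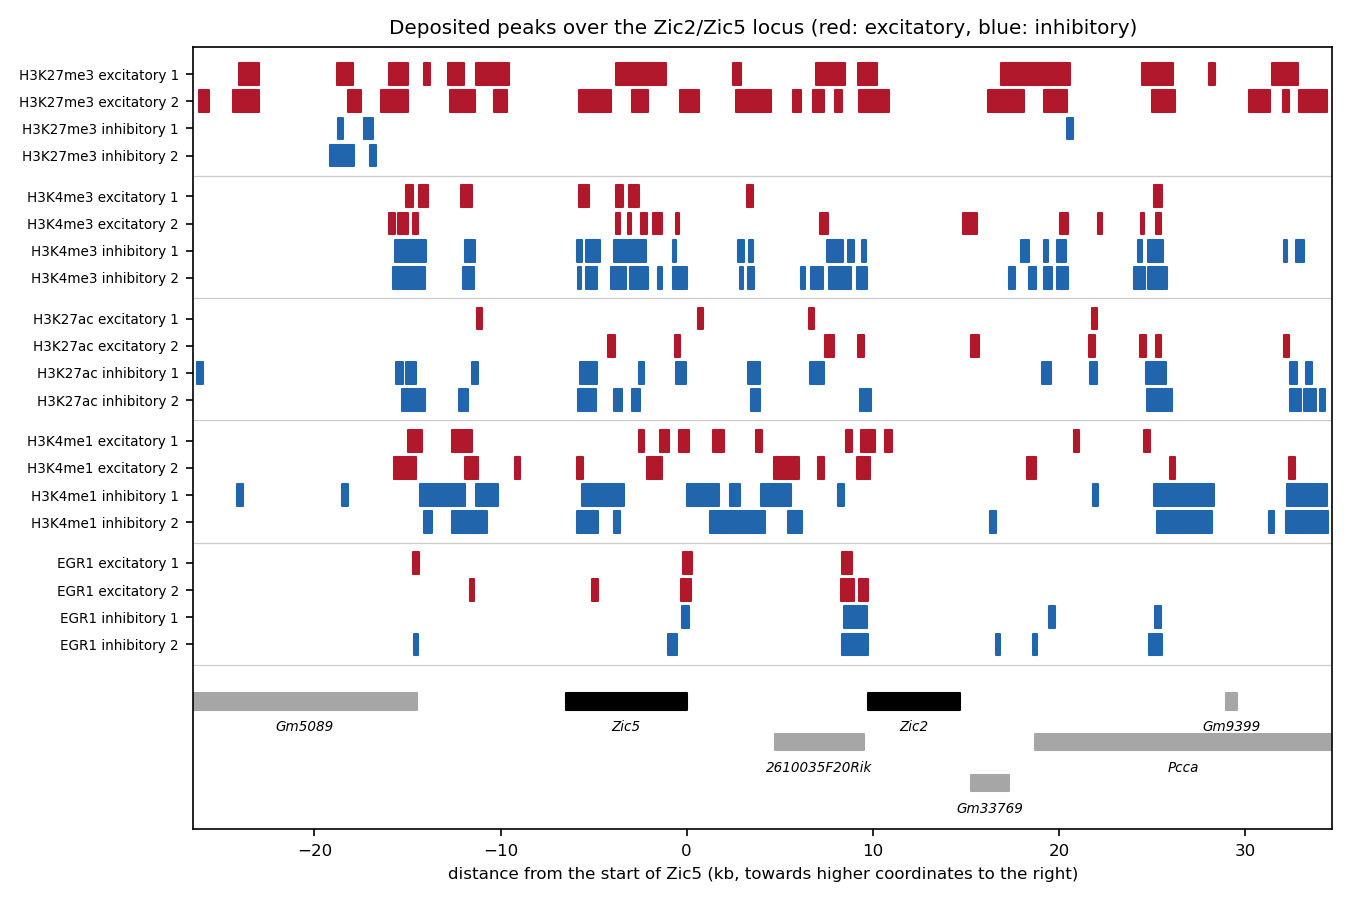
Deposited peaks within 20 kb of Zic2 and Zic5, with 1 row per library (red excitatory, blue inhibitory) and distance from the start of Zic5 in kb on the x axis; black boxes are the members and grey boxes other genes. H3K27me3 bars lie over Zic5 and one end of Zic2 in the excitatory rows only, with most of Zic2 free of them, H3K4me3 bars cover more of the locus in the inhibitory rows, and an EGR1 bar is present in all 4 rows beside Zic2.

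H3K4me3 and H3K27me3, which lie together at promoters of poised developmental genes, were set against each other in each neuron type. The 2 libraries of a type were joined, and the marks came from different libraries, so an overlap does not place them on the same nucleosome. Over Zic2 and Zic5, 3.05 kb of the 3.98 kb under H3K4me3 peaks in excitatory libraries, or 76.7%, also lay under H3K27me3 peaks. Over Zic1 and Zic4 this was 1.99 of 4.82 kb, or 41.4%. H3K27me3 covered 53.2% and 40.6% of these windows as a whole. Of the H3K4me3 length, only 0.286 kb over Zic2 and Zic5 lay under peaks of both excitatory libraries. Over Zic1 and Zic4 it was 0.101 kb. The values for both inhibitory libraries were 4.34 kb and 5.01 kb. The excitatory overlap thus rests mostly on H3K4me3 peaks seen in a single library. In inhibitory libraries none of the 9.19 kb and 10.05 kb under H3K4me3 lay under H3K27me3. There H3K27me3 covered 0% and 1.54% of the windows, so little or no overlap was possible and nothing is read from its absence.

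**Figure D5:**
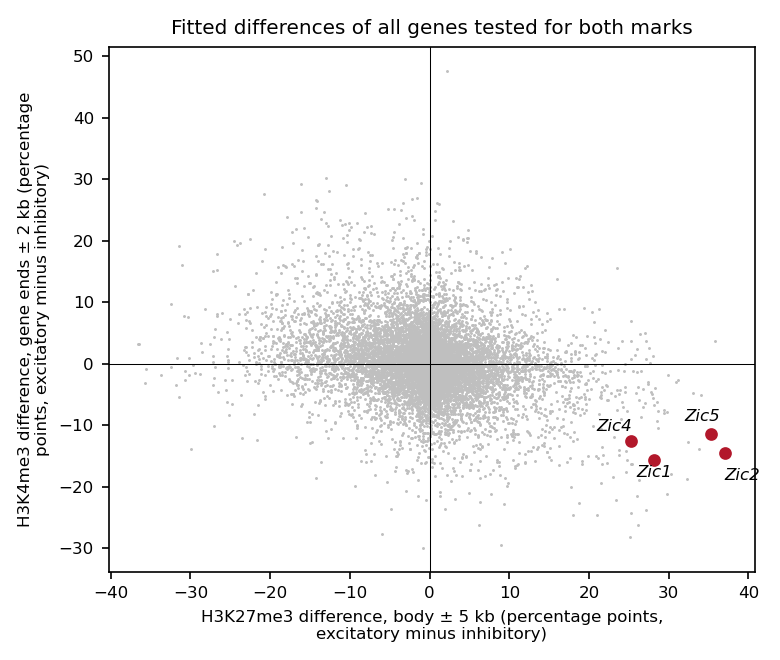
Fitted difference in H3K27me3 coverage of the gene body plus 5 kb (x axis) against that in H3K4me3 coverage of the gene ends (y axis), both in percentage points and excitatory minus inhibitory, with 1 grey point per gene tested for both marks. Zic1, Zic2, Zic4 and Zic5 (red) lie at 25.2 to 37.1 on the x axis and -15.6 to -11.4 on the y axis.

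For EGR1 both inhibitory libraries lay above both excitatory ones at Zic1, Zic4 and Zic2, and the types overlapped at Zic5. The end windows of Zic1 and Zic4 gave the same values, since the same peaks fell in both: 0% in both excitatory libraries and 7.45% and 11.01% in the inhibitory ones (fitted difference -10.4 points, SE 1.48). Zic2 was covered in all 4 libraries, over 6.19% and 14.7% in excitatory and 15.5% and 18.6% in inhibitory ones (difference -9.83, SE 2.99). Zic5 was covered over 5.72% and 11.4% against 4.57% and 5.76%, with overlapping types (difference 0.89, SE 2.24). Zic1 and Zic4 entered the test only through the inhibitory libraries. The median of the 4 was -10.1 points, beside -0.43 over all genes. Limma called 0 of 14310 genes (0%) and 0 members, while an unadjusted p under 0.05 was reached by 2107 genes (14.7%). The inhibitory libraries lay above the excitatory ones without overlap in 6.04% of genes, as they did for Zic1, Zic4 and Zic2. Peaks in both inhibitory and in neither excitatory library were found in 0.741% of genes. In body windows Zic1 and Zic4 were called, among 432 genes. The inhibitory EGR1 lists held fewer peaks, 49899 and 62412 against 93858 and 98534.

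The EGR1 region at the start of Zic1 (chr9:91365559-91366260, 702 bases) covers the gene's start and the promoter shown above. It had folds of 5.25 and 3.38 and -log10 q of 6.85 and 3.54 in inhibitory libraries 1 and 2, with summits 212 and 292 bases upstream of the start. Neither excitatory library had a peak there, and 100% and 59.3% of the printed promoter was covered in the inhibitory libraries. Most of the region also lies in the Zic4 gene model, at its edge and on the opposite strand. A second region, inside Zic4 (chr9:91381408-91381921), held peaks in all 4 libraries with folds of 3.04 to 3.46. The printed Zic4 promoter had no EGR1 peak in any library. Over all 21045 promoters, 49.1% to 54.0% held an EGR1 peak in a library.

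At Zic2 and Zic5 EGR1 peaks were present in both types. The region of 1480 bases that ends in Zic2 (chr14:122473941-122475420) had -log10 q of 1.61 and 3.73 in excitatory and 5.16 and 10.1 in inhibitory libraries. It lies between the pair, over the noncoding gene 2610035F20Rik and the edge of Zic2. The region at the start of Zic5 (chr14:122465345-122465944) held peaks in both excitatory libraries and in inhibitory library 1. Their -log10 q was 3.50 and 1.51 in excitatory libraries and 5.61 in inhibitory library 1. Inhibitory library 2 had a peak beside that region (chr14:122464669-122465129), with a -log10 q of 3.89. The printed Zic5 promoter was covered over 100% and 99.7% in excitatory and 55.7% and 0% in inhibitory libraries. In covered share this was the reverse order of the Zic1 promoter, but in peak strength it was not, as inhibitory library 1 was strongest.

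Both enhancer marks separated the neuron types at Zic5. Its H3K27ac coverage was 3.52% and 4.16% in excitatory and 16.2% and 14.6% in inhibitory libraries (difference -10.9 points, SE 1.91, rank 31 from the bottom of 16654). Its H3K4me1 coverage was 13.6% and 12.1% against 40.8% and 31.3% (difference -24.9, SE 4.31, rank 10 from the bottom of 18017). Both marks were higher in both inhibitory libraries. The outer end of Zic5 carried much of it, with H3K27ac over 0% in both excitatory and 23.2% and 25.02% in inhibitory libraries within 2 kb.

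The other 3 members overlapped between types in H3K27ac. Zic1 was covered over 1.45% and 8.75% against 11.02% and 8.75% (difference -4.27, SE 2.58). Zic4 was covered over 6.05% and 7.70% against 8.72% and 6.63% (difference -0.49, SE 1.70). Zic2 was covered over 1.94% and 8.25% against 8.24% and 3.69% (difference -1.14, SE 2.39). Limma called 0 of 16654 genes for H3K27ac (0%) and 0 members, while 3039 genes (18.2%) reached an unadjusted p under 0.05. Inhibitory libraries lay above excitatory ones without overlap in 26.2% of genes, Zic5 among them. The member median of -2.71 points stood beside -0.08 over all genes.

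For H3K4me1 the pair on chromosome 14 was split. Zic2 was covered over 9.66% and 18.8% in excitatory and 8.00% and 6.94% in inhibitory libraries (difference 3.01, SE 2.98), the reverse of its neighbour Zic5. Zic4 was covered over 8.66% and 23.6% against 20.3% and 30.6% (difference -11.2, SE 5.30), and Zic1 over 10.8% and 17.7% against 19.03% and 17.0% (difference -7.05, SE 2.76), both with overlap. Limma called 1 of 4 members, Zic5, from which nothing is read, and 1.53% of 18017 genes higher in inhibitory libraries. Over all genes tested, inhibitory libraries were higher without overlap in 15.3% and excitatory ones in 39.3%. Zic5 was not called in end windows, with equal peak numbers, without the filter, or without any 1 of the 4 libraries. The member median was -9.13 points, beside -0.34 over all genes.

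Genes related to the Zic family by their zinc fingers were read from a list of 6: the Hedgehog effectors Gli1, Gli2 and Gli3, and Glis1, Glis2 and Glis3. Since limma called no gene at all for H3K27me3, EGR1 or H3K27ac, no list could have members that passed there, and only sizes are given. For H3K27me3 the median difference was 0.61 points. Gli3, the repressor arm of Hedgehog signalling, had the largest, with 23.2% and 24.3% in excitatory and 10.9% and 9.66% in inhibitory libraries (difference 16.9, SE 2.24, limma adjusted p = 0.0555). Next were Gli1 at 3.83 and Gli2 at -3.07. For H3K4me3 0 of 6 passed, and the median was -2.59 points. The largest differences were those of Glis1 (-9.25), Gli2 (-9.04) and Gli3 (8.97), so the list did not move one way. For EGR1 the largest difference of 5 tested was at Glis2 (6.72), and Gli3 had a peak in 1 of 4 libraries. For H3K27ac the largest was at Glis3 (2.80). For H3K4me1 0 of 6 passed, with the largest difference at Gli1 (-9.98).

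A list of 13 genes of the dorsal midline and roof plate, the signalling centre beside which Zic genes act in the embryo, had H3K27me3 in both types. Its mean was 26.1% to 32.1% in excitatory and 30.4% to 31.3% in inhibitory libraries, and the median difference was 2.66 points. The largest differences were those of the homeobox factors Msx2 (12.8) and Msx1 (-9.82) and of the neural tube factor Olig3 (-12.6). For H3K4me1, 2 of 13 fell in excitatory libraries, where limma called 1.53% of all genes in that direction. These were Olig3, from 26.2% and 29.9% in inhibitory to 2.44% and 7.19% in excitatory libraries (difference -24.3, SE 2.69, limma adjusted p = 0.0401), and Msx1, from 35.6% and 37.6% to 9.36% and 19.9% (difference -23.6, SE 3.74, limma adjusted p = 0.0420). The list's median was -4.27 points. Without excitatory library 1 or either inhibitory library limma called 0 genes for H3K4me1, so these calls and that of Gad1 were lost. Neither gene had much H3K27ac: Olig3 was at 0 in all 4 libraries, and Msx1 at 2.07% in 1. For H3K4me3 0 of 12 tested passed, with the largest differences for the ligands Wnt3a (13.7) and Bmp6 (11.8) and for Olig3 (9.19). Olig3 was at 0 in both inhibitory libraries for this mark, so it was tested only through the excitatory ones. For EGR1 the median of 6 tested was 3.35 points, and for H3K27ac that of 8 was -0.36. With EGR1, Lmx1b, Bmp7, Wnt1 and Pax7 were at 0 in both inhibitory libraries and Gdf7 in both excitatory ones. The filter thus fixed the side on which these were covered, and nothing is read from that median. With H3K27ac, Wnt1 was likewise tested only through the excitatory libraries.

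Flanking protein-coding genes were read in the same kinds of windows, which do not show where along the chromosome the contrast ends. Next to Zic2, Pcca, a subunit of propionyl-CoA carboxylase, lies 4.04 kb away, so its end lies in the Zic2 window. Its H3K27me3 coverage was 2.65% and 3.13% in excitatory and 0.499% and 0.245% in inhibitory libraries (difference 4.07, SE 0.653, limma adjusted p = 0.0555). On the other side, Clybl, a mitochondrial citramalyl-CoA lyase 56.9 kb from Zic5, had 20.3% and 22.8% against 10.6% and 5.89% (difference 16.8, SE 2.39, limma adjusted p = 0.0555). Clybl fell in excitatory libraries for H3K4me1, to 5.97% and 6.33% from 13.9% and 13.5% (difference -10.6, SE 1.97, limma adjusted p = 0.0496), a call lost in the same way. Tm9sf2 and Gm46487, the next genes out, had no H3K27me3 peak in any library. The nearest genes of the Zic1/Zic4 pair lie 797 to 1158 kb away, and 0 of 4 passed for H3K4me3 or H3K4me1, the marks for which any gene did. The closest of them, Plscr5, had the largest H3K27me3 difference of the 4, 14.04 points (SE 2.78, limma adjusted p = 0.0647).

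The genes most like the members were found from the within-library percentile rank of body coverage in all 20 libraries, by Pearson's r with the mean rank of the 4 members. These were Mrgprf, an orphan receptor (r = 0.863), the granule neuron marker Fat2 (0.854), Rcan3, a calcineurin regulator (0.842), Gprc5c, an orphan receptor (0.834), and the homeobox factor Barhl2 (0.830). The members themselves had 0.935 for Zic1, 0.901 for Zic4, 0.820 for Zic2 and 0.783 for Zic5. Libraries of 1 antibody share their peak calling and the members enter the mean, so these values are a description. Barhl2 was covered by H3K27me3 over 22.6% and 26.5% in excitatory and 0% in both inhibitory libraries.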

How the data were processed

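CUT&RUN libraries of sorted nuclei from mouse whole brain were grouped by their titles into 10 groups of 2. Inside the EGR1 lists peak names carry other replicate numbers than the labels, which were followed. Tools in the submitters' processing notes are MACS2 2.2.5, SAMtools 1.12, Picard 2.25.0, Bowtie2 2.3.5, cutadapt 1.18 and Trim Galore 0.5.0, with mm10 as build and with their settings not given in the sources used here. Each library has its own list of peaks, as deposited by the authors, broad for H3K4me1 and H3K27me3 and narrow otherwise. Its columns are a deposited fold enrichment (a ratio), -log10 p-value, -log10 q-value and an integer score per peak, all the authors' own values; the score was not used. From the values, the lists reach p-values of 0.0999 (broad), 0.0498 (narrow histone) and 0.00491 (EGR1). They hold no counts, so depth is unknown and no counting interval is given.

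Peaks on chromosomes 1 to 19 and X were joined to RefSeq genes of GRCm38.p6. Percent coverage of each gene's window was computed per library in Python 3.11.15, quantile-normalized over the 4 libraries of an antibody, which removes differences in total coverage, and passed to limma 3.58.1 (R 4.3.3; lmFit, eBayes with trend) for genes with a covered base in at least 2 libraries. Adjusted p-values are two-sided, Benjamini-Hochberg over all genes tested, with a threshold of 0.05. Differences are on the normalized scale and levels are not. An exact permutation test of 2 against 2 cannot go below p = 0.333 and was not used. The fit was tested on simulated shifts.

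The members and lists were chosen with earlier results of these data known. Named are the 4 members; from the related and dorsal midline lists the genes that passed, otherwise up to 3 with the largest difference; the 2 nearest protein-coding genes on each side of each pair; the 5 genes most alike; and markers of cell types; some genes of these lists are not reported here. Alternatives were another window, only peaks with -log10 p of at least 3, equal numbers of strongest peaks, no quantile normalization, log2(percent + 1), no filter, a replicate block and leaving out each library.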

Additional observations from a re-analysis of the deposited data

How the results depend on the processing

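The H3K27me3 and H3K4me3 differences of the 4 members kept their direction under every alternative that gave a value (40 of 40 and 44 of 44), EGR1 in 42 of 44, H3K27ac in 37 of 43 and H3K4me1 in 39 of 40. With only peaks of -log10 p at least 3, no member could be fitted for H3K27me3 or H3K4me1. Reversed were EGR1 at Zic5 (-5.40 with equal peak numbers, -2.10 to 3.86 leaving out a library), H3K27ac at Zic2 (2.63 at gene ends, 2.38 with strict peaks, 0.97 with equal peak numbers, -3.92 to 1.33 leaving out a library) and at Zic4 (-1.56 to 0.66 leaving out a library), and H3K4me1 at Zic2 (-0.71 to 7.04 leaving out a library). The negative end of EGR1 at Zic5 and of H3K4me1 at Zic2 came without excitatory library 2, and the positive ends of H3K27ac without excitatory library 1 at Zic2 and inhibitory library 1 at Zic4. The cause was not tested.

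Members called for H3K4me3 went from 2 to 0 with body windows, equal peak numbers, no quantile normalization, log2 or no filter; leaving out a library gave 0 to 1. For EGR1 2 were called in body windows. For H3K4me1 the 1 call became 0 at gene ends, with equal peak numbers or without the filter, and 0 without any 1 library. For H3K27me3 all 4 were called on the log2 scale, where 1031 genes were. Genes called for H3K4me3 went from 474 to 111 with body windows and 0 without normalization, on log2 or without the filter, and 0 to 747 leaving out a library. EGR1 gave 432 in body windows and 53 without the filter. H3K27ac gave 16 without the filter and 0 to 925 leaving out a library (925 without excitatory library 1, 899 without library 2). H3K4me1 went from 732 to 219 at gene ends, 0 with strict or equal peaks, 1211 without normalization, 291 on log2 and 20 without the filter, and 0 to 507 leaving out a library. The member median moved to -5.28 (EGR1, body windows), -17.8 (H3K4me1, gene ends) and 27.6 (H3K27me3, gene ends). Leaving out a library it ranged from -11.30 to -7.75 (EGR1) and -6.02 to -1.04 (H3K27ac).

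Same-numbered libraries of the 2 types deviated together with a correlation of -0.0168 to 0.0595 over genes, so the numbers were not taken as pairs. With the replicate block, H3K4me3 gave 1221 genes and 4 members, H3K27ac 1329 genes and 1 member, and H3K4me1 0 genes and 0 members. Depth is unknown, so absence of a peak may be a limit of detection.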
